A study of Mus musculus with 24 samples.

Results

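Myosin heavy chains are the motor proteins of muscle thick filaments and of contractile bundles in other cells, and 10 genes of the family were followed here: Myh1, Myh2, Myh3, Myh4, Myh6, Myh7 and Myh8, which build sarcomeres, Myh9 and Myh10, which are the non-muscle isoforms, and Myh11, the smooth muscle isoform. They were chosen by symbol, whatever their values, as every probe set of the array that the platform annotation maps to one of them. They are 10 of 18193 genes that the array measures by a probe set with 1 symbol. Of 45101 probe sets, 22 met the rule. Of these, 20 map to 1 symbol: 11 to a sarcomeric gene, 7 to a non-muscle gene and 2 to Myh11. The remaining 2 map to both Myh7 and Myh6, so they are counted as sarcomeric and assigned to neither gene.

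RNA was measured on Affymetrix mouse arrays, 24 samples in 8 groups of 3. The cells were P19, a pluripotent mouse embryonal carcinoma line, and MEFs, embryonic fibroblasts of Myod-/-/Myf5-/- mice, a genotype that every MEF group shares, controls included. The first batch comprised untransduced cells of both kinds and, from each, cells given MyoD lentivirus. A second batch paired untransduced MEFs with MEFs whose label is NeuroD2. In the third, P19 cells given NeuroD2 lentivirus were set beside untransduced ones. MyoD, a basic helix-loop-helix protein, can turn fibroblasts into skeletal muscle, and its relative NeuroD2 acts in nerve cells. Virus was given with 8 µg/ml polybrene and the medium was replaced at 24 hours. The P19 cells given virus were harvested at 72 hours. Only the MEFs with MyoD were moved, at 48 hours, to differentiation medium with 1% horse serum and insulin and transferrin at 10 µg/ml each, and they were harvested 36 to 40 hours later. The sources used here give no harvest time for the MEFs labelled NeuroD2 or for the untransduced controls, no viral promoter and no embryo age. The effect of MyoD in MEFs therefore includes that of the medium, and the 2 cannot be told apart. All controls were untransduced, and no group was given virus without a factor. The effect of each factor in either cell thus cannot be told apart from that of transduction with polybrene, nor from any difference in harvest time.

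Skeletal muscle uses its sarcomeric heavy chains in sequence. Myh3 is the embryonic chain and Myh8 the perinatal one; Myh7 is the slow chain, shared with the heart ventricle; Myh2, Myh1 and Myh4 are the fast adult chains; and Myh6 is the alpha chain of the heart. Myh9 and Myh10 drive cell shape, adhesion and division in most cells, and Myh11 is a marker of differentiated smooth muscle. In the RefSeq annotation, Myh3, Myh2, Myh1, Myh4 and Myh8 lie side by side in that order on mouse chromosome 11 with no other protein-coding gene between their starts, Myh6 and Myh7 lie on chromosome 14, Myh9 on 15, Myh10 on 11 and Myh11 on 16.

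The transduced factor and the cells were first checked against their labels. The Myod1 probe set 1418420_at rose by 3.94 ± 0.12 in P19 cells with MyoD and by 5.55 ± 0.12 in MEFs with MyoD (log2, SE, n = 3 per group; limma adjusted p = 4.14e-14 and 3.78e-18), while the other Myod1 probe set did not pass. The deleted genes still gave signal in untransduced MEFs: compared with P19 controls of batch 1, the Myf5 probe set was higher by 5.65 ± 0.20, with means of 10.07 and 4.42, and the Myod1 probe set 1418420_at by 1.46 ± 0.12 (limma adjusted p = 3.43e-15 and 4.03e-09). The labels do not place these probe sets against the deleted parts, so they do not check the genotype. The Neurod2 probe set 1418995_at rose by 1.70 ± 0.19 in P19 cells with NeuroD2 (limma adjusted p = 2.17e-06). In MEFs labelled NeuroD2, 0 of 3 Neurod2 probe sets rose, with differences from -0.12 to 0.21, so those libraries are named by their label. In them 1 of 7 neuron markers rose, Tubb3, a neuronal tubulin, by 1.83 ± 0.29 (limma adjusted p = 0.000145), and 4346 probe sets of all kinds were called. All 8 fibroblast markers were higher and all 6 pluripotency markers lower in untransduced MEFs than in untransduced P19 cells. In batch 1, replicate 2 of the P19 controls stood apart: it had a lower quartile of 4.79 and an upper quartile of 7.63, where the other 23 arrays had lower quartiles of 4.47 to 4.58 and upper quartiles of 8.23 to 8.39. Its mean correlation with its group was 0.916, against at least 0.986 for the 21 arrays of other groups. Replicate 1 of the P19 controls of batch 3 also departed from its group on several members. All arrays share 1 estimate of the spread, so either array can move a call in any comparison. Values without them are given for many calls that ended or began, but not for all. A result given without such values may thus also depend on these arrays.

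The values are log2 signals, so a difference of 1 is a doubling. Differences were tested with limma over all 24 arrays and adjusted by Benjamini-Hochberg over 45037 probe sets; "rose", "fell" and "called" mean an adjusted p under 0.05, and errors of differences are SEs with n = 3 per group. Nothing in the labels ties the replicates to separate cultures, and p-values measure only the spread between these samples, which may be technical. Each probe set has its own response, so levels are compared between groups within a probe set and never between probe sets. Where groups are said not to overlap, this describes the readings. The share of all probe sets whose groups do so is not given.

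Sequences just upstream of 4 sarcomeric genes are shown because these genes parted in the results. Myh3 rose with MyoD in both cells, and Myh1 on 2 of 3 probe sets and Myh7 rose in MEFs alone at the threshold. Myh4, the neighbour of Myh1 on chromosome 11, was not called. The sequences are the 250 bases before a start site, 5′ to 3′ on the gene's strand, from RefSeq on GRCm38.p6. Capitals mark the E-box CANNTG, which basic helix-loop-helix factors bind, the binding consensus of MEF2 factors, and TATAAA. E-boxes and MEF2 matches were sought on both strands and TATAAA on the gene's strand.

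Myh3, chr11:67078050-67078299, plus strand: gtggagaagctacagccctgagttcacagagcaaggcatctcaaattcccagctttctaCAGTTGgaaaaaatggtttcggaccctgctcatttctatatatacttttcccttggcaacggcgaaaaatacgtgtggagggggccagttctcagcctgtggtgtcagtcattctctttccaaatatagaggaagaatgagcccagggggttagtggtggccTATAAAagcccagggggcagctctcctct

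Myh1, chr11:67199852-67200101, plus strand: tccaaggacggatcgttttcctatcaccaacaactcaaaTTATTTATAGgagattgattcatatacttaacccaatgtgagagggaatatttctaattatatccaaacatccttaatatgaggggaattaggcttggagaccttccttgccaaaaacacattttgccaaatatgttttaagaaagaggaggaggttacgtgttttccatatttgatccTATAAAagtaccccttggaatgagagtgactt

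Myh7, chr14:54994627-54994876, minus strand: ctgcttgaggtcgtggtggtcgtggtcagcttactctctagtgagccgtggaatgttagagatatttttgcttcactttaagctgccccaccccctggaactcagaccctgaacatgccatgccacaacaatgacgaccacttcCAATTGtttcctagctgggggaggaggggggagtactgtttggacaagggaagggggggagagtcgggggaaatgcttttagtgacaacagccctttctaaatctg

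Myh4, chr11:67237562-67237811, plus strand: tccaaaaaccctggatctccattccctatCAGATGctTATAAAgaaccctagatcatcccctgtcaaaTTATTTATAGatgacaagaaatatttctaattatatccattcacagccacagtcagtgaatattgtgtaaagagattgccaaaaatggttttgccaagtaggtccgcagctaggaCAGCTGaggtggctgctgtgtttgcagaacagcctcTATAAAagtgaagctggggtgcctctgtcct

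Of the 10 genes, 9 had an upstream entry, and Myh7 had 2 start sites, of which the outer one is shown; the Myh3 window ends at a start that is not the outer edge of its annotated gene. Myh3 has an E-box that begins 191 bases before its start and TATAAA 29 bases before it. Myh1 has TATAAA 32 bases before its start and a MEF2 match at 211 bases, and no E-box in this window. Myh4 holds 2 E-boxes, at 221 and 67 bases, the second being CAGCTG; a MEF2 match at 182 bases; and TATAAA at 213 and 31 bases. Myh7 has 1 E-box in the window shown, at 106 bases; before its other start, E-boxes begin at 183 and 62 bases, the nearer being CAGGTG, which 17.2% of the windows hold. The MEF2 match has the same letters in Myh1, Myh4 and Myh8. Over 32851 RefSeq windows of this length, 66.2% hold an E-box of the form CANNTG, 13.0% CAGCTG, 2.92% a MEF2 match and 7.59% TATAAA. The windows describe letters, and binding was not measured here.

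**Figure D1:**
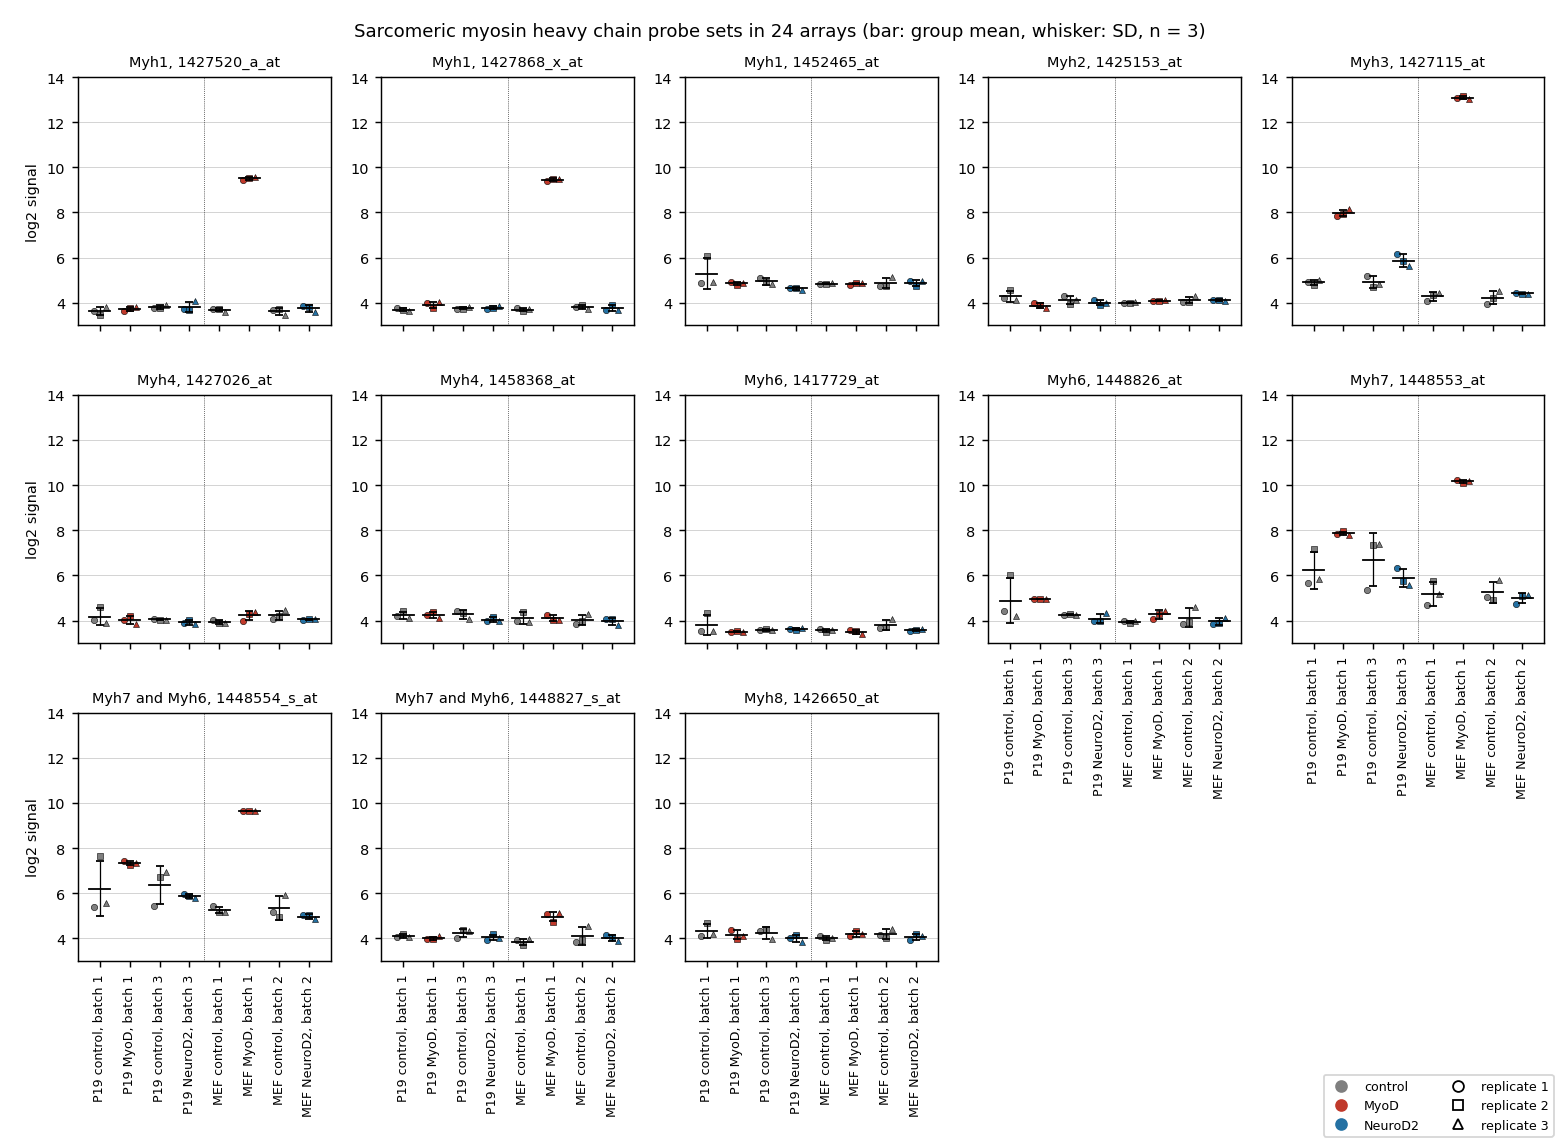
Log2 signal of each of the 13 sarcomeric probe sets (vertical axis) in the 8 groups (horizontal axis), with points for arrays, bars for group means and whiskers for SD (n = 3). MEFs with MyoD are high on Myh3, on 2 of 3 Myh1 probe sets, on Myh7 and on 1448554_s_at, which Myh7 shares with Myh6. On the other shared probe set, 1448827_s_at, they rise only to a mean of 4.97. Myh2, Myh4 and Myh8 stay low in every group.

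MEFs with MyoD gained embryonic, slow and 1 of the fast sarcomeric heavy chains and lost signal of both non-muscle chains. Of the 13 sarcomeric probe sets, 6 rose and 0 fell, where 8.68% of all probe sets rose in this comparison. Of the 7 non-muscle probe sets, 5 fell and 0 rose, where 11.1% of all probe sets fell. The 2 Myh11 probe sets did not pass. The median difference was 0.32 over the sarcomeric and -0.62 over the non-muscle probe sets, beside 0.00 over all probe sets. In such bulk samples, a change in the share of cells that express a gene and a change in its RNA per cell cannot be told apart.

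Myh3, the embryonic chain and the first to appear in developing muscle fibres, moved furthest. Its probe set 1427115_at read 13.06, 13.16 and 13.04 in MEFs with MyoD and 4.07, 4.33 and 4.45 in the untransduced MEFs of batch 1. All 3 MyoD arrays lay far above all 3 controls. The rise was 8.80 ± 0.16, or 446-fold (limma adjusted p = 1.79e-19), and it stayed between 8.69 and 8.88 over 34 alternative settings.

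Myh1, a fast chain of adult muscle, rose on 2 of its 3 probe sets. Probe set 1427520_a_at read 9.44, 9.53 and 9.55 with MyoD against 3.73, 3.74 and 3.60, a rise of 5.82 ± 0.12 (limma adjusted p = 1.05e-18). Probe set 1427868_x_at read 9.38, 9.49 and 9.49 against 3.77, 3.62 and 3.72, a rise of 5.75 ± 0.09 (limma adjusted p = 3.55e-20). The third, 1452465_at, read 4.81, 4.88 and 4.86 against 4.84, 4.83 and 4.88, a difference of -0.00 ± 0.21 (limma adjusted p = 0.999). The Myh1 probe sets thus disagree, and the flat one has the highest mean signal over the 24 arrays. A reduction to 1 probe set per gene by highest mean therefore lists Myh1 as flat, while the mean of its 3 probe sets rose by 3.86 (limma adjusted p = 9.19e-19). The pair that rose are of the kinds that can match several transcripts, so a share of their signal from other transcripts of the family was not tested.

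Myh7, the slow chain, rose as well. Probe set 1448553_at read 10.23, 10.10 and 10.16 in MEFs with MyoD against 4.67, 5.74 and 5.17, and the groups lay apart by more than the spread of either. The rise was 4.97 ± 0.44, or 31.4-fold (limma adjusted p = 2.07e-08). Both probe sets that Myh7 shares with Myh6 rose too: 1448554_s_at by 4.38 ± 0.42, to 9.63 to 9.64, and 1448827_s_at by 1.11 ± 0.16, to 4.72 to 5.11 (limma adjusted p = 6.74e-08 and 1.29e-05). The Myh6 probe sets with 1 symbol did not pass, at 0.32 ± 0.30 and -0.07 ± 0.15. Among 8 heart markers, Gata4 rose by 0.56, Tnnt2 rose by 8.65 and Hand2 fell, with a difference of -0.76. The other 5 did not pass, and the median difference of the 8 was 0.0075. Their mean level was 6.36 to 6.43 in MEFs with MyoD against 5.34 to 5.41 in their controls. Tnnt2 adds by far the largest difference to that mean. The part of the heart markers in the Myh7 signal was not tested. All 8 skeletal muscle markers rose, with a median of 6.98.

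The remaining sarcomeric chains were not called. Myh2, a fast chain measured by 1425153_at, read 4.07 to 4.12 with MyoD against 3.97 to 4.03, a difference of 0.10 with a 95% interval of -0.15 to 0.34. Myh8, the perinatal chain measured by 1426650_at, differed by 0.19 (95% interval -0.14 to 0.53). Myh4, the fastest chain, differed by 0.29 (-0.03 to 0.61) on 1427026_at and by -0.00 (-0.30 to 0.30) on 1458368_at. These 4 probe sets, and 1417729_at of Myh6, lay below the lower quartile of the array on all 24 arrays, where low signals are compressed, so small changes there could go unseen. The Myh4 probe set 1427026_at passed when the P19 control array that stood apart was left out of the shared fit, with the same difference (limma adjusted p = 0.0462). In that fit 14.7% of all probe sets rose. Across the whole series Myh2 spanned 3.76 to 4.57, Myh4 3.80 to 4.62 and Myh8 3.84 to 4.70.

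**Figure D2:**
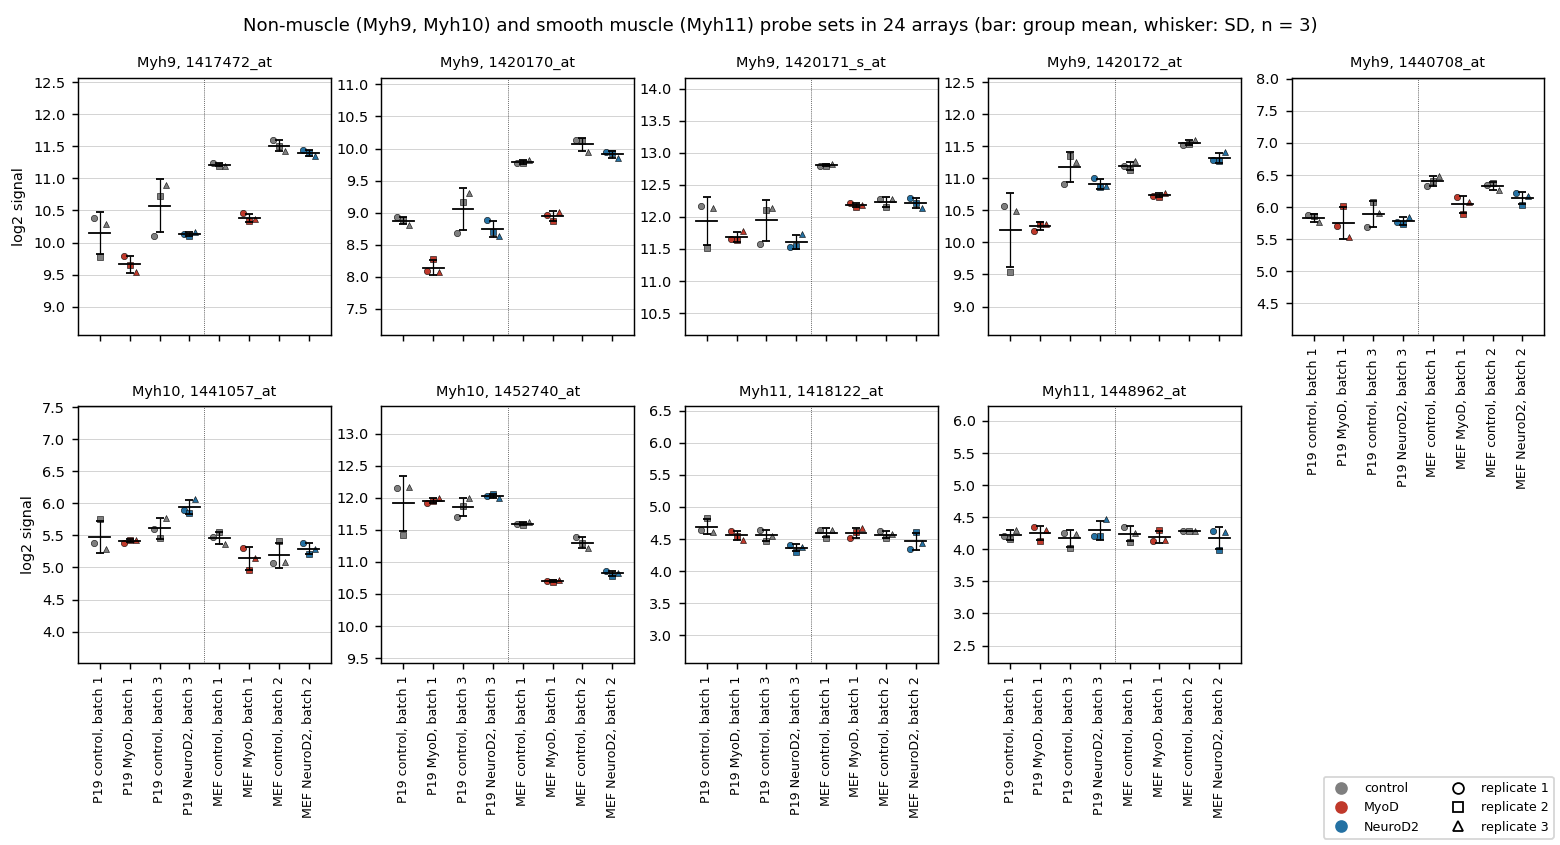
Log2 signal of the 7 non-muscle and 2 smooth muscle probe sets (vertical axis, each panel spanning 4 log2 units) in the 8 groups, with points for arrays, bars for group means and whiskers for SD (n = 3). MEFs with MyoD lie below the untransduced MEFs of batch 1 on every Myh9 and Myh10 panel, and the group means of Myh11 span at most 0.33.

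Myh9, the non-muscle chain that dominates in fibroblasts, fell on 4 of its 5 probe sets in MEFs with MyoD. Probe set 1417472_at read 10.46, 10.33 and 10.37 against 11.24, 11.20 and 11.20, a fall of -0.83 ± 0.16 (limma adjusted p = 0.000465). Probe set 1420170_at read 8.97, 8.87 and 9.01 against 9.77, 9.78 and 9.83, a fall of -0.85 ± 0.12 (limma adjusted p = 2.14e-05). Probe sets 1420171_s_at and 1440708_at fell by 0.62 and 0.37 on the log2 scale, and 1420172_at differed by -0.46 (limma adjusted p = 0.00413, 0.0299 and 0.0848). The 3 MyoD arrays lay below the 3 controls on each of the 5 probe sets, a description that adds nothing to the calls. Against the untransduced MEFs of batch 2 in place of those of batch 1, the first pair differed by -1.13 and -1.12 (limma adjusted p = 1.14e-05 and 4.49e-07) and 1420172_at by -0.82 (adjusted p = 0.00149). By contrast 1420171_s_at then differed by -0.05 and 1440708_at by -0.29 (adjusted p = 0.878 and 0.0882), so the call on these 2 depended on the control. With the P19 control array that stood apart left out of the shared fit, 1420172_at passed at the same difference (limma adjusted p = 0.000301), where 17.4% of all probe sets fell.

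Myh10, the non-muscle chain prominent in neural and embryonic cells, fell on 1 of 2 probe sets. Probe set 1452740_at read 10.70, 10.68 and 10.71 in MEFs with MyoD against 11.59, 11.58 and 11.62 in controls. The fall was -0.90 ± 0.14 (limma adjusted p = 3.67e-05), and -0.60 against the controls of batch 2 (adjusted p = 0.002). The dimmer probe set 1441057_at differed by -0.32 ± 0.13 (adjusted p = 0.0939, and 0.0216 without the P19 control array that stood apart). Myh11 differed by 0.00 on 1418122_at and by -0.05 on 1448962_at, whose 95% intervals reached from -0.27 to 0.19. Probe set 1448962_at lay below the lower quartile of the array on all 24 arrays and 1418122_at on 10, so small changes could go unseen. Of 7 other smooth muscle markers, Smtn and Synpo2 rose and 5 did not pass, with Acta2 at 0.82 and Tagln at -0.32; the mean level of the 7 was 8.44 to 8.51 with MyoD and 7.87 to 7.96 in controls. Of 8 fibroblast markers, 6 fell, with a median of -1.74, alongside the fall of Myh9 and Myh10; their part in it was not tested.

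**Figure D3:**
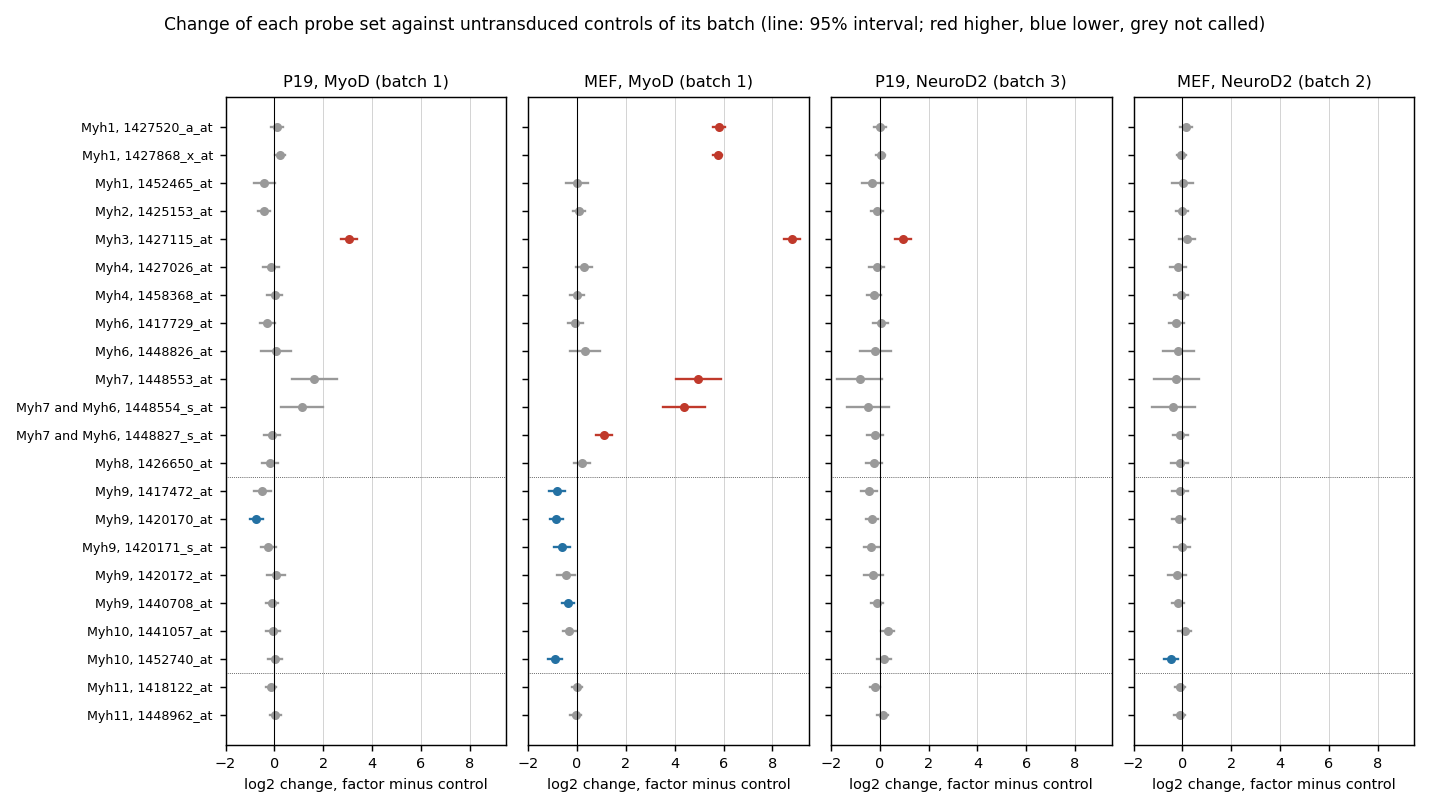
Log2 difference of each of the 22 probe sets (points, with 95% intervals as lines) between each factor and the untransduced controls of its batch; red marks higher and blue lower at an adjusted p under 0.05, and dotted lines part sarcomeric, non-muscle and smooth muscle probe sets. The rises in MEFs with MyoD reach 8.80 for Myh3, and the largest rise with NeuroD2 is 0.96, for Myh3 in P19 cells.

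In P19 cells MyoD raised Myh3 and no other sarcomeric chain passed. Of 13 sarcomeric probe sets 1 rose and 0 fell, where 1.7% of all probe sets rose, and of 7 non-muscle probe sets 1 fell, where 0.384% of all probe sets fell. Without the P19 control array that stood apart, 4 sarcomeric probe sets rose and 3 non-muscle ones fell, where 1.5% of all rose and 1% fell. Without replicate 1 of the batch 3 P19 controls, 2 sarcomeric rose and 1 fell and 2 non-muscle fell, where 2.18% of all rose and 0.704% fell. The median difference was 0.01 over the sarcomeric and -0.08 over the non-muscle probe sets, beside 0.01 over all. Myh3 read 7.85, 7.94 and 8.13 with MyoD against 4.93, 4.79 and 5.02. The groups did not overlap, and the rise was 3.06 ± 0.16, or 8.37-fold (limma adjusted p = 1.31e-10). The 2 Myh1 probe sets that rose in MEFs were not called: they differed by 0.09 ± 0.12 and 0.23 ± 0.09 (adjusted p = 0.599 and 0.146). On the second, 1427868_x_at, the groups did not overlap, at 3.97, 3.77 and 4.01 against 3.76, 3.67 and 3.64. Myh2 read 3.98, 3.88 and 3.76 with MyoD against 4.19, 4.57 and 4.11, also without overlap, a difference of -0.42 ± 0.12 (adjusted p = 0.0664). It was -0.28 without the array that stood apart (adjusted p = 0.197), and -0.42 without replicate 1 of the batch 3 controls (adjusted p = 0.0472).

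The Myh7 call also depended on the control arrays. Its probe set 1448553_at read 7.84, 7.95 and 7.80 in P19 cells with MyoD and 5.68, 7.18 and 5.84 in untransduced P19 cells of batch 1. The 7.18 is the array that stood apart; the MyoD arrays lay above all 3 controls. The difference was 1.63 ± 0.44 (limma adjusted p = 0.0584), and without that array 2.11 (adjusted p = 0.00617). It also passed, at the same difference, when P19 control replicate 1 of batch 3 was left out of the fit (adjusted p = 0.00777). Probe set 1448554_s_at, shared with Myh6, gave 1.13 ± 0.42 (adjusted p = 0.134) and 1.85 without it (adjusted p = 0.000717). Myh6 itself, on 1448826_at, read 4.96, 4.94 and 4.95 against 4.41, 6.03 and 4.21, a difference of 0.07 (adjusted p = 0.89), and of 0.64 without it (adjusted p = 0.0428). On all 3 probe sets, that 1 control was the highest of its group.

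Among the non-muscle chains, Myh9 fell in P19 cells with MyoD on 1 of 5 probe sets. Probe set 1420170_at read 8.08, 8.28 and 8.07 against 8.93, 8.89 and 8.81, with no overlap, and fell by 0.73 on the log2 scale (limma adjusted p = 0.00195). The others differed by -0.49, -0.25, 0.06 and -0.08. Without the array that stood apart, 1417472_at differed by -0.67 and 1420171_s_at by -0.46 (adjusted p = 0.0108 and 0.0395); without replicate 1 of the batch 3 controls, 1417472_at passed at -0.49 (adjusted p = 0.0324). Leaving out the array that stood apart turned 1420172_at from 0.06 to -0.28 (adjusted p = 0.202). Myh10 on 1452740_at had a mean of 11.95 with MyoD, against 12.15, 11.42 and 12.16, a difference of 0.04 ± 0.14 (adjusted p = 0.836), and of -0.20 without that array (adjusted p = 0.256). Of the 8 skeletal muscle markers, 2 rose (Tnnc2 by 2.96 and Des by 0.51), with a median of 0.19 over the list. Of 8 heart markers Tnnt2 rose, by 2.59; of 7 smooth muscle markers Myocd rose, by 1.09; and of 8 fibroblast markers Col1a1 fell, with a difference of -1.33 (limma adjusted p = 1.14e-08, 0.00753 and 0.0221). The mean heart level was 5.25 to 5.50 with MyoD against 5.23 to 6.16 in controls, the smooth muscle level 8.41 to 8.47 against 8.48 to 8.75, and the fibroblast level 6.23 to 6.35 against 6.82 to 7.36. Their part in the changes of myosin was not tested.

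**Figure D4:**
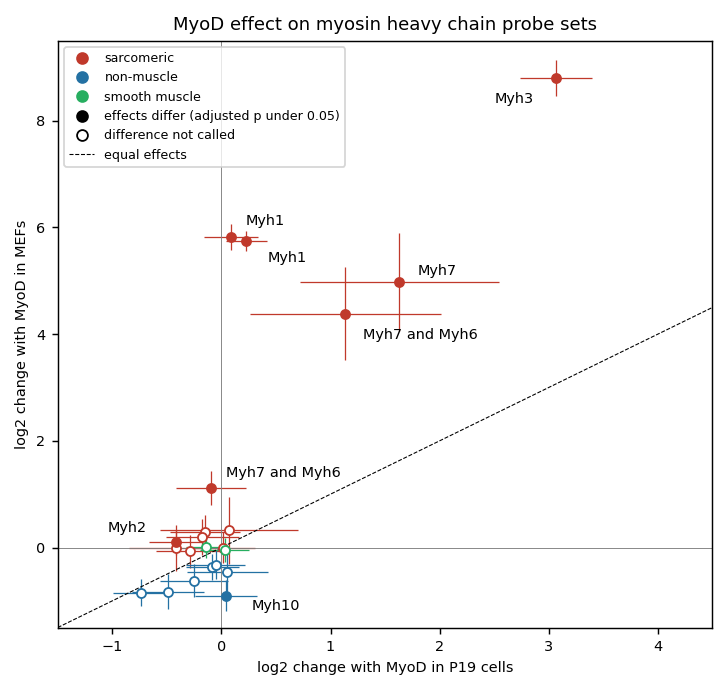
Log2 difference with MyoD in P19 cells (horizontal axis) and in MEFs (vertical axis) for the 22 probe sets, with 95% intervals; filled points are those whose effects differ between the cells at an adjusted p under 0.05, and the dashed line marks equal effects. Myh3 lies at 3.06 and 8.80, and the 2 responding Myh1 probe sets rise on the vertical axis alone.

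The MyoD effect was then compared between the cells directly, as a difference of differences within batch 1. It was larger in MEFs for 7 of 13 sarcomeric probe sets, where 4.97% of all probe sets had a higher effect in MEFs. For Myh3 the effects differed by 5.74 ± 0.22, for Myh1 by 5.73 ± 0.17 and 5.52 ± 0.13, and for Myh7 by 3.34 ± 0.62 (limma adjusted p = 1.59e-13, 2.19e-15, 1e-16 and 0.000598). The probe sets shared by Myh7 and Myh6 differed by 3.25 and 1.21 (adjusted p = 0.000497 and 0.000486). Myh2 also passed, by 0.51 ± 0.16 (adjusted p = 0.0356), from effects of -0.42 in P19 cells and 0.10 in MEFs, neither called. The call was lost when any of 8 single arrays was left out, and with the outlying P19 control excluded the difference was 0.37 (adjusted p = 0.0475). Of the non-muscle probe sets, 1 of 7 had a lower effect in MEFs, where 11.4% of all probe sets did: Myh10 on 1452740_at, by -0.94 ± 0.19 (adjusted p = 0.00154). No Myh9 probe set passed, with differences between effects of -0.51 to -0.11 and 95% intervals that reached from -1.04 to 0.25. The cells differed in medium and harvest time as well as in kind, and these cannot be told apart.

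With NeuroD2 the sarcomeric chains moved little. In P19 cells with NeuroD2, 1 of 13 sarcomeric probe sets rose, where 4.07% of all probe sets rose and 2.05% fell, and 0 of 7 non-muscle probe sets passed. That one was Myh3, which read 6.18, 5.83 and 5.61 against 5.20, 4.71 and 4.82 in the untransduced P19 cells of batch 3. The groups did not overlap; the rise was 0.96 ± 0.16, or 1.95-fold (limma adjusted p = 0.000376), and the call held under 34 alternatives, with adjusted p up to 0.0255. Of 8 skeletal muscle markers 0 passed, with a median of -0.06, while all 7 neuron markers rose, with a median of 3.20. The MyoD effect on Myh3 in P19 cells was larger than the NeuroD2 effect, each against its own batch, by 2.10 ± 0.22 (adjusted p = 3.15e-06), in a test in which 1.72% of all probe sets had a larger and 2.06% a lower MyoD effect. Myh7 passed the same test, at 2.45 ± 0.62 (adjusted p = 0.0275), with both control groups holding an array that departs from its mates; without either or both of them the difference was 2.93 to 3.60. The shared probe set 1448554_s_at passed this test without either array, at 2.33 and 2.09 (adjusted p = 0.000473 and 0.0364).

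Myh7 in the P19 cells of batch 3 read 6.34, 5.75 and 5.55 with NeuroD2 against 5.36, 7.37 and 7.39 in controls. Control replicate 1 lay well below the other controls, and the groups overlapped. The difference was -0.82 ± 0.44 (limma adjusted p = 0.414), and -1.49 without that replicate (adjusted p = 0.0155). The same replicate was also the lowest of its group on all 5 Myh9 probe sets. Without it, 3 of them differed by -0.50 to -0.67 (limma adjusted p = 0.00294 to 0.0307), where 2.33% of all probe sets fell. With it none passed. When P19 control replicate 2 of batch 1 was left out instead, 1417472_at and 1420171_s_at passed at differences of -0.44 and -0.35 (limma adjusted p = 0.0211 and 0.0298). So did Myh10 on 1441057_at at 0.33 and Myh1 on 1452465_at at -0.31 (adjusted p = 0.0358 and 0.0307). In that fit 8.42% of all probe sets rose and 7.68% fell. In replicate 1 of the batch 3 controls the mean level over 7 smooth muscle markers was 6.71, the lowest of its group, in which the highest was 8.53. What set it apart was not tested.

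In MEFs labelled NeuroD2, 0 of 13 sarcomeric probe sets passed, where 5.22% of all probe sets rose and 4.43% fell; without the P19 array that stood apart, Myh6 on 1417729_at passed at -0.25 (limma adjusted p = 0.0359), where 11% rose and 9.72% fell. Myh3 read 4.45, 4.40 and 4.41 against 3.95, 4.19 and 4.53, a difference of 0.19 (95% interval -0.14 to 0.52). Of the 7 non-muscle probe sets 1 fell. Myh10 on 1452740_at read 10.85, 10.78 and 10.83 against 11.39, 11.30 and 11.22, with no overlap, and fell by 0.48 on the log2 scale (limma adjusted p = 0.0277). The call was lost in 5 of 6 fits that left out 1 array of these groups (adjusted p of 0.0669 to 0.113). The MyoD and NeuroD2 effects on it did not differ beyond the threshold, at -0.42 (adjusted p = 0.19). For Myh9 on 1417472_at and 1420170_at the MyoD effect in MEFs was the lower, by 0.71 and 0.69 on the log2 scale (adjusted p = 0.0349 and 0.00836), in a test in which 8.28% of all probe sets had a lower MyoD effect. The count of 2 non-muscle probe sets became 5 without the P19 array that stood apart, where 15.2% of all had a lower MyoD effect. It became 3 without P19 control replicate 1 of batch 3, where 8.84% did. In the same test the MyoD effect was the higher on 6 of 13 sarcomeric probe sets, where 6.33% of all probe sets had a higher one: Myh3 by 8.61, Myh1 by 5.69 and 5.80, Myh7 by 5.23 and the 2 shared probe sets by 4.76 and 1.20.

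Before any factor was added, the 2 cells differed in several members. All 5 Myh9 probe sets were higher in untransduced MEFs than in untransduced P19 cells of batch 1, where 22.2% of all probe sets were higher, with differences of 0.58 to 1.07 (limma adjusted p from 3.22e-06 to 0.000407). The groups did not overlap on any of the 5, which likewise only describes the readings. Without the array that stood apart, 1420172_at differed by 0.66 (adjusted p = 8.34e-06). Myh10 on 1452740_at went the other way, by -0.31 (adjusted p = 0.0713), and by -0.56 without the array that stood apart (adjusted p = 3.31e-06). Of the sarcomeric probe sets, 3 were lower in MEFs, where 20.5% of all probe sets were lower: Myh3 by 0.63, Myh6 on 1448826_at by 0.93 and Myh2 by 0.29 on the log2 scale, as differences of MEFs from P19 cells of -0.63, -0.93 and -0.29 (adjusted p = 0.00302, 0.0168 and 0.0465). Without the array that stood apart, Myh6 and Myh2 differed by -0.36 and -0.15 and no longer passed (adjusted p = 0.0898 and 0.24). Myh7 on 1448553_at and the shared 1448554_s_at differed by -1.04 and -0.96 (adjusted p = 0.0623 and 0.0717), by -0.56 and -0.25 without that array (0.318 and 0.566), and passed at -1.04 and -0.96 without replicate 1 of the batch 3 controls (0.0142 and 0.0442). This comparison shares its controls with the MyoD comparisons, so their values are not independent.

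The same untransduced cells also differed between batches. In P19 controls, Myh9 on 1420172_at read 10.91, 11.35 and 11.26 in batch 3 against 10.57, 9.53 and 10.49 in batch 1, higher by 0.97 ± 0.18 (limma adjusted p = 0.00164), and by 0.64 without the array that stood apart, the 9.53 (adjusted p = 0.000199), where 9.1% of all probe sets were higher and 2.82% lower. In MEF controls, Myh9 on 1420171_s_at read 12.28, 12.15 and 12.28 in batch 2 against 12.80, 12.79 and 12.82 in batch 1, lower by 0.57 on the log2 scale (difference -0.57, adjusted p = 0.0377), where 1.5% of all probe sets were lower and 1.9% higher. The other Myh9 probe sets of MEF controls differed by -0.08 to 0.36. The last of these, 1420172_at, and Myh10 on 1452740_at, at -0.30, passed without the P19 array that stood apart (limma adjusted p = 0.00925 and 0.00655). In that fit 6.75% of all probe sets were higher and 8.46% lower. No sarcomeric probe set differed between batches of controls at the threshold in either cell; with 13 tested in each, the median differences were -0.00 in P19 cells and 0.11 in MEFs. Without both P19 arrays that depart from their groups, Myh7 and the shared 1448554_s_at were higher in the P19 controls of batch 3, by 1.62 and 1.34 (limma adjusted p = 0.000608 and 0.000115). In that fit 7.34% of all probe sets were higher. Without replicate 1 of the batch 3 controls alone, 3 non-muscle probe sets were higher in the P19 controls of batch 3, where 5.88% of all were. Without the array that stood apart alone, 1 non-muscle probe set was lower there, where 6.06% of all were.

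Over the 8 groups, the order of Myh3 was MEFs with MyoD (mean 13.09), P19 cells with MyoD (7.98), P19 cells with NeuroD2 (5.87), the P19 controls (4.91 in both batches), MEFs labelled NeuroD2 (4.42) and the MEF controls (4.29 and 4.23). Neighbours in that order did not overlap down to the P19 controls, which overlapped each other; they lay above MEFs labelled NeuroD2, which overlapped the MEF controls. Myh7 followed the order of MEFs with MyoD (10.16), P19 cells with MyoD (7.86) and then the P19 and MEF groups from 6.70 down to 4.99, each overlapping the next. Myh10 on 1452740_at ran from 12.03 in P19 cells with NeuroD2 to 10.70 in MEFs with MyoD; its 4 P19 groups overlapped in sequence and its 4 MEF groups did not. Myh11 spanned 0.33 between its highest and lowest group mean on 1418122_at and 0.12 on 1448962_at.

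Among 8707 genes with a span of group means of at least 1 log2 unit, those whose 8 group means were most like those of Myh3 were Unc45b, a chaperone that folds myosin (Pearson r = 0.996), Myl1, an alkali light chain of fast muscle (0.992), and Tnnc2, fast troponin C (0.990). The mean of Myh3 was 13.09 in MEFs with MyoD and 7.98 in the next group, so its r values rest largely on 1 group. The nearest to Myh9 on 1420171_s_at were Il1a (0.954), Nqo1 (0.946) and Serpinb9b (0.944). On 1420171_s_at and 1440708_at the untransduced MEFs of batch 1 had the highest mean of the 8 groups. On 1417472_at, 1420170_at and 1420172_at those of batch 2 did, so this likeness is that of 1 Myh9 probe set. The nearest to Myh10 on 1452740_at were Lancl2 (0.988), Tubb5 (0.980) and Ccdc136 (0.977). For Myh11 the likeness peaked at 0.878, with Avpi1, followed by Aknad1 (0.853) and Znrf4 (0.852). The group means of Myh11 on 1418122_at spanned only 0.33, and it lay below the lower quartile on 10 of 24 arrays. Its likeness thus rests on small differences between low signals. These r values describe 8 means that share arrays and batches.

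**Figure D5:**
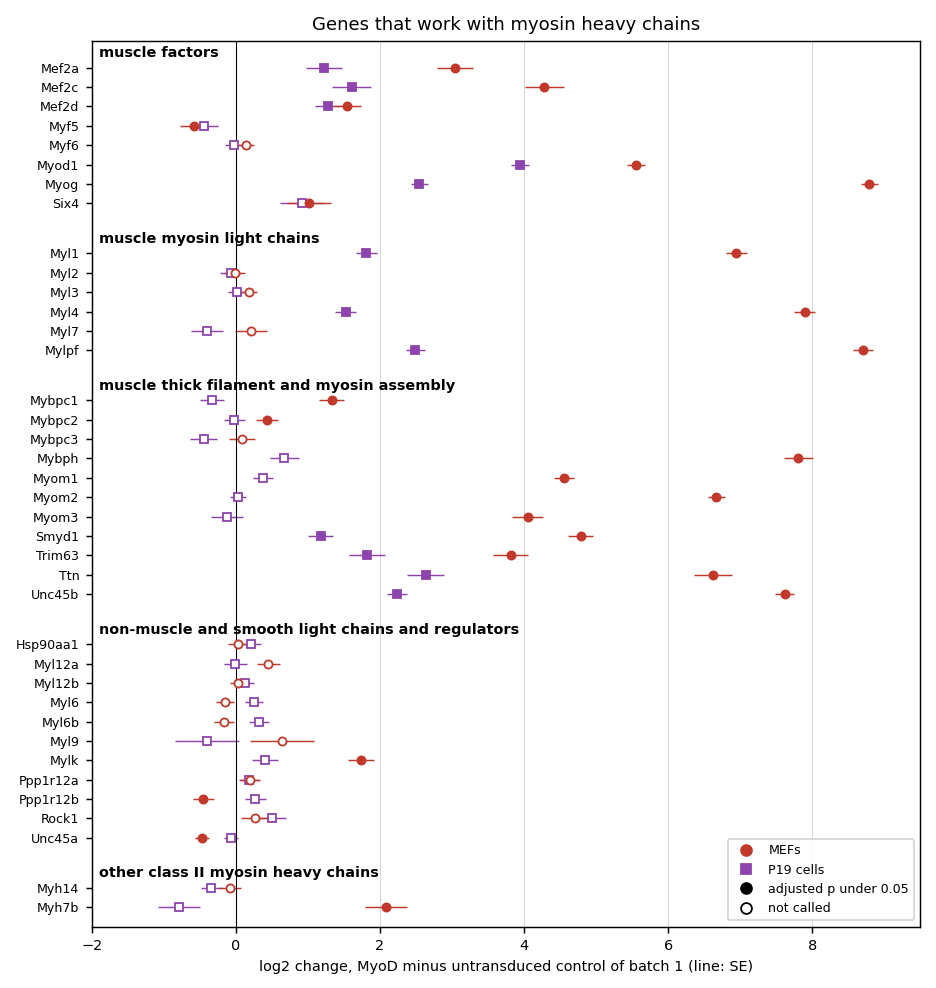
Log2 difference with MyoD (points, with SE) for 38 measured genes of 5 lists around myosin, in MEFs (red circles) and P19 cells (purple squares); filled points passed an adjusted p under 0.05. Muscle light chains and thick filament genes lie far to the right in MEFs and nearer 0 in P19 cells, and most non-muscle regulators lie near 0 in both.

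Heavy chains work with light chains, filament proteins and chaperones, and these were read from fixed lists, 1 probe set per gene. In MEFs with MyoD, 3 of 6 muscle light chains rose, 0 fell and 3 did not pass: Mylpf, a fast regulatory light chain, by 8.71 ± 0.14, Myl4, the embryonic and atrial light chain, by 7.89 ± 0.15, and Myl1 by 6.94 ± 0.15 (limma adjusted p = 3.55e-20, 2.31e-19 and 2.77e-18). The heart and slow chains Myl2, Myl3 and Myl7 differed by -0.02, 0.17 and 0.21. In P19 cells with MyoD the same 3 of 6 rose, by 2.49, 1.52 and 1.81. The list's median was 3.58 in MEFs and 0.77 in P19 cells.

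Of 11 measured genes of the thick filament and of myosin assembly, 10 rose in MEFs with MyoD and 0 fell, with a median of 4.55. The largest rises were those of Mybph, a thick filament protein (7.80), Unc45b (7.62), Myom2, an M-band protein (6.67), and Ttn, the giant spring titin (6.62). Mybpc3, the heart form of myosin-binding protein C, did not pass, at 0.09. In P19 cells 4 of the 11 rose and 0 fell: Ttn by 2.63, Unc45b by 2.24, Trim63, a ubiquitin ligase of sarcomere proteins, by 1.81, and Smyd1, a methyltransferase needed for thick filament assembly, by 1.18. Myom2 differed there by 0.03 and Mybph by 0.67. In P19 cells with NeuroD2, Unc45b rose by 0.71 (adjusted p = 0.00162), beside the rise of Myh3, while Myom2 and Trim63 fell by 0.41 and 0.95 on the log2 scale.

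Of 8 measured muscle transcription factors, 6 rose and 1 fell in MEFs with MyoD; the largest were Myog, the factor of terminal differentiation (8.79), the transduced Myod1 (5.55) and the MyoD partners Mef2c (4.28) and Mef2a (3.04). Myf5, an early muscle factor deleted in these MEFs by their label, was the one that fell: its mean went from 10.07 to 9.49, by 0.58 on the log2 scale (limma adjusted p = 0.0418). In MEFs labelled NeuroD2 the same probe set fell by 0.77 on the log2 scale, from 9.44 to 8.67 (adjusted p = 0.0128). In P19 cells 5 of 8 rose and 0 fell, with Myog at 2.54 and Mef2c at 1.61. Of 11 measured non-muscle and smooth muscle light chains and regulators, 1 rose in MEFs with MyoD, the myosin light chain kinase Mylk (1.73), and 2 fell: Unc45a, the general myosin chaperone, and Ppp1r12b, a subunit of myosin phosphatase, by 0.47 and 0.46 on the log2 scale. In P19 cells with MyoD 0 of these 11 passed. 2 more class II heavy chains were measured: Myh7b, a relative of the cardiac chains, rose by 2.08 ± 0.30 in MEFs with MyoD (adjusted p = 1.67e-05), and Myh14, the third non-muscle chain, differed by -0.08.

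In MEFs labelled NeuroD2, 1 of 6 muscle light chains rose and 0 fell, Myl4 by 2.24 ± 0.15 (limma adjusted p = 5.27e-10). Of 11 thick filament and assembly genes 1 rose, Myom2 by 0.89, and 1 fell, its fellow M-band gene Myom1 by 0.51 on the log2 scale (adjusted p = 1.31e-05 and 0.0207). Of 8 muscle factors Mef2d rose by 0.69 (adjusted p = 0.0174) and Myf5 fell. Of 11 non-muscle and smooth muscle light chains and regulators 2 rose, the light chain Myl6 by 0.74 and the kinase Rock1 by 0.65 (adjusted p = 0.000186 and 0.0406), and 1 fell, Ppp1r12b, by 1.12 on the log2 scale. Myh14 rose by 0.53 (adjusted p = 0.0262). Of the 8 skeletal muscle markers 1 rose, the fusion protein gene Mymk, by 1.01 (adjusted p = 0.000259).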

How the data were processed

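The authors deposited 1 log2 signal per probe set and array. The sources used here do not state their summary or normalization, and the submitters' processing notes name limma alone. The values were used without further scaling. Groups come from titles, since the characteristics call samples with MyoD neuronally differentiated.

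Of 45101 probe sets, 64 Affymetrix controls were left out. With limma 3.58.1 in R 4.3.3, a mean per group was fitted over 24 arrays (16 residual and 3.66 prior degrees of freedom), and 10 two-sided contrasts were each adjusted by Benjamini-Hochberg over 45037 probe sets. The test was checked on simulated data, and alternatives covered scaling, dim probe sets, array weights, the choice of controls, a replicate block and each array left out. Every member probe set is named. Pathway lists name up to 4 called genes with the largest change in MEFs with MyoD; further genes were named after their values were seen. For each list gene, and for likeness, the probe set with the highest mean stands for the gene. The members and lists were chosen with earlier results of these data known. Array number limits the precision.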

Additional observations from a re-analysis of the deposited data

Results flagged for a closer look

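The MyoD effect differed between MEFs and P19 cells on 8 of the 22 probe sets, each by a test of the difference between effects (limma, adjusted over all probe sets). The differences, MEFs minus P19 cells on the log2 scale, were 5.735 for Myh3, 5.727 (1427520_a_at) and 5.524 (1427868_x_at) for Myh1, 3.339 for Myh7, 3.249 (1448554_s_at) and 1.208 (1448827_s_at) for the probe sets that Myh7 shares with Myh6, and 0.5137 for Myh2. For Myh2 neither effect was called by itself, and its probe set lay below the lower quartile on all 24 arrays. Its call was also lost in several fits with an array left out. For Myh10 on 1452740_at the difference was -0.9436. The groups of 3 are too small for a test of single outlying samples.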

How the results depend on the processing

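Counts of member genes with at least 1 called probe set moved with the setting. Calls over all probe sets moved too, and their ranges close this section. A moved count is therefore not a result about the members alone. With MyoD in P19 cells, sarcomeric genes higher went from 1 to 2 with a common median, with dim probe sets left out, with 1 probe set per gene or with their mean, and to 3 with array weights; sarcomeric genes lower went from 0 to 1 with the mean or with weights; and non-muscle genes lower went from 1 to 0 with 1 probe set per gene, with the mean or with only the compared groups, and to 2 with weights. In MEFs with MyoD, sarcomeric genes higher went from 3 to 5 with only the compared groups or weights. In MEFs labelled NeuroD2, non-muscle genes lower went from 1 to 0 with a common median, the mean or the replicate block, and to 2 with weights or the other batch's controls. In P19 cells with NeuroD2, sarcomeric genes lower went from 0 to 1 with weights or the other controls, non-muscle genes higher from 0 to 2 with the other controls, and non-muscle genes lower from 0 to 1 with weights. Between control cells, sarcomeric genes lower in MEFs went from 3 to 1 with only the compared groups, and non-muscle genes lower from 0 to 1 with repeated quantile normalization or weights. For the difference of MyoD effects, non-muscle genes lower went from 1 to 2 with weights.

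A fit without P19 control replicate 2 of batch 1 and replicate 1 of batch 3 was chosen after seeing the data. With MyoD in P19 cells it gave 3 sarcomeric genes higher, where 2.48% of all probe sets were higher. In MEFs labelled NeuroD2, 2 non-muscle genes and 1 sarcomeric gene were lower, where 11.7% of all probe sets were. With NeuroD2 in P19 cells, 1 sarcomeric and 1 non-muscle gene were lower, where 8.88% of all probe sets were. Between control cells, 1 sarcomeric and 1 non-muscle gene were lower in MEFs, where 24.9% of all probe sets were. The cause was not tested.

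With each array left out in turn, sarcomeric genes higher and lower with MyoD in P19 cells ranged from 1 to 3 and 0 to 3, and sarcomeric genes higher in MEFs with MyoD from 3 to 4. In MEFs labelled NeuroD2, sarcomeric and non-muscle genes lower each ranged from 0 to 1, as did sarcomeric lower, non-muscle higher and non-muscle lower with NeuroD2 in P19 cells. Between control cells, sarcomeric lower ranged from 1 to 6 and non-muscle lower from 0 to 1; for the difference of MyoD effects, sarcomeric higher ranged from 3 to 5 and non-muscle lower from 1 to 2.

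Reversed values were those of Myh9 on 1420172_at with MyoD in P19 cells (0.06; -0.28 with weights and without both arrays, -0.92 with the other controls; -0.28 to 0.24 over the fits with an array left out) and with NeuroD2 there (-0.26; 0.71 with the other controls), Myh10 on 1452740_at with MyoD in P19 cells (0.04; -0.20 with weights), and Myh1 in MEFs with MyoD (-0.00 on its brightest probe set, 3.86 as the mean of 3). Deviations of same-numbered replicates from their group means correlated at -0.196 to 0.314, and over 0.1 in 7 of 24 pairs. With groups of 3 this cannot show whether the numbers pair samples, and the labels do not say. Under the replicate block, Myh10 in MEFs labelled NeuroD2, Myh9 on 1440708_at in MEFs with MyoD and Myh2 between control cells had adjusted p of 0.0521, 0.0679 and 0.0566 (limma). With each array left out in turn, calls over all probe sets ranged from 372 to 16275 for MyoD in P19 cells (938 with all arrays). They ranged from 7182 to 14452 in MEFs (8889), from 3335 to 9314 for MEFs labelled NeuroD2 (4346) and from 1841 to 7255 for NeuroD2 in P19 cells (2756). Under the other settings that kept every probe set, the ranges in that order were 52 to 4118, 8183 to 19391, 3887 to 13604 and 2094 to 11103. Between control cells they ranged from 16267 to 23650 with an array left out and from 9609 to 24672 otherwise (19260). For the difference of MyoD effects the ranges were 5906 to 11684 and 4976 to 16175 (7369).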
